A study of Mus musculus with 10 samples.

Results

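Gene expression was described in the LSK cells of 5 control mice, which make up 5 of the 10 arrays of the series, 1 array per mouse. LSK cells are bone marrow cells without lineage markers that carry Sca1 and cKit, the gate that holds haematopoietic stem cells and the multipotent progenitors. The mice were assigned to the group by their label alone. The control mice were labelled with the strain LysMCre, the name of a line in which Cre recombinase is expressed from the Lyz2 locus, and were 9 to 16 weeks old. The 5 remaining arrays, from LysM-KI mice of the same strain label and age, were used only when the arrays were normalized together. The labels do not give the sex of the mice, the knocked-in allele, the antibodies of the sort or the purity of the sorted cells. Per the labels, RNA was amplified with the WT-Ovation Pico kit, a method for very small amounts of RNA, and hybridised as biotinylated cDNA to an Illumina mouse array with 45281 probes.

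Haematopoietic stem cells self-renew and give rise to all blood lineages through multipotent progenitors, some of which already transcribe genes of the lymphoid or myeloid fate before they commit to it. Stem cell identity depends on a set of transcription factors that includes Gata2, Runx1, Meis1, Erg and Mecom. It also depends on receptors such as Kit, which pass on signals from the niche. The LSK gate holds few true stem cells among many progenitors.

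A probe was called detected on an array when its deposited detection fraction was above 0.95. On that rule 17076, 16835, 17093, 15234 and 16921 probes were detected in mice 1 to 5. Mouse 4 had the fewest, and the other 4 arrays lay within a narrow range. Across the group, 10377 of 45281 probes (22.9%) were detected on all 5 arrays and 20906 on none. For genes, each represented here and below by the probe with the highest mean, 5879 of 19057 named genes (30.8%) were detected on all 5 arrays, and 7321 (38.4%) were detected on none. The remaining genes were seen on 1 to 4 arrays, and 2095 of them on a single array. Listed genes close to the threshold were mostly dim. Ctnnal1, just inside it, had a lowest fraction of 0.951 and a mean of 5.71 on the normalized log2 scale, and Hoxc10, just outside it, had a lowest fraction of 0.948 and a mean of 5.43. Undetected values had a median of 4.64 on that scale, which is therefore close to the floor of the measurement.

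**Figure D1:**
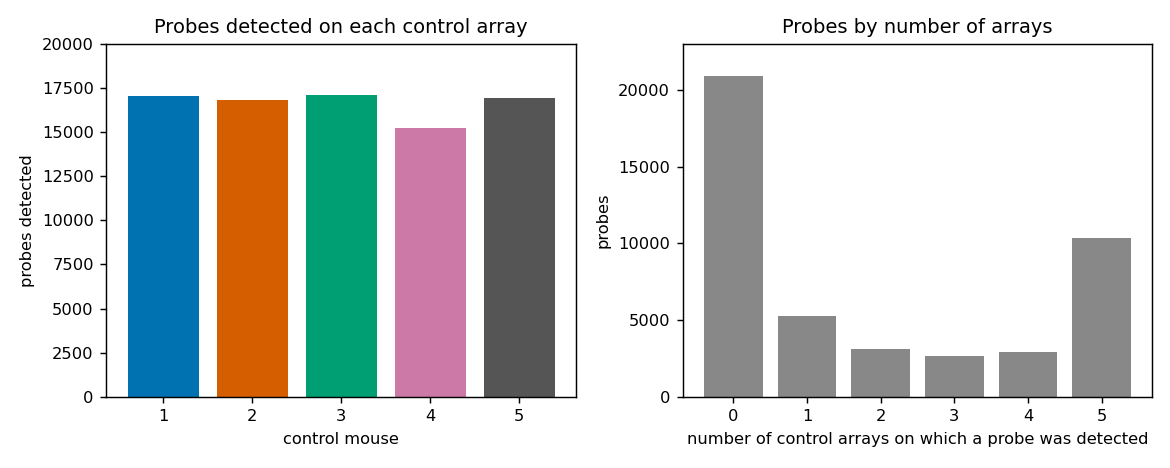
The left plot gives the number of probes detected (fraction above 0.95) on the array of each control mouse, and the right plot the number of probes detected on 0 to 5 of these arrays. Mouse 4 had 15234 detected probes, and the other 4 mice had 16835 to 17093.

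The array of mouse 4 stood apart from the rest. Over the 10377 probes detected on all arrays, its correlation with each other mouse was 0.782 to 0.791, whereas the 6 pairs among mice 1, 2, 3 and 5 gave 0.841 to 0.863 (Pearson, across probes, which are not independent replicates). Of the 2948 probes missed on exactly 1 array, 43.9% were missed in mouse 4. No pair of arrays was close to identical, the highest correlation being 0.863 between mice 1 and 2. Mouse 4 also differed in genes that separate the sexes. Xist, the RNA that coats the inactive X chromosome, read 4.79, 4.77, 5.17, 11.81 and 7.08 in mice 1 to 5 and was detected only in mice 4 and 5, its second probe only in mouse 4. Eif2s3y, a Y-linked translation factor gene, read 10.02, 9.12, 9.65, 4.41 and 8.87 and was undetected only in mouse 4, although its dimmer second probe was detected on all 5 arrays. Kdm5d, a Y-linked histone demethylase gene, read 7.26, 5.96, 6.44, 4.60 and 5.79 and was likewise undetected only in mouse 4, while Uty, its Y-linked relative, was detected on all 5 arrays at 6.28, 7.59, 6.02, 6.18 and 7.50. Mouse 4 was thus high for Xist and at the floor for the brightest probes of Eif2s3y and Kdm5d, and mouse 5 was intermediate for Xist with a high Eif2s3y. The part that these differences have in the other results was not tested, and only some of the results that rest on mouse 4 are given without it below.

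The marker genes of the gate were present as far as the array names them. Kit, whose product binds stem cell factor and gives the gate its K, read 8.91, 8.09, 9.27, 8.67 and 9.22 in mice 1 to 5 and was detected on all 5 arrays. Its mean of 8.83 ± 0.48 (SD, n = 5) put its brightest probe at the 92.0th percentile of brightness among all probes, with mouse 2 the lowest. The probes of Kit disagreed, since its second probe averaged 6.32 at the 75.6th percentile and was detected on 3 arrays. Ly6a, which encodes Sca1, has no named probe in the annotation used and was not analysed here, so the S of LSK could not be checked. Procr, a surface receptor enriched on stem cells, read 9.25, 7.50, 8.03, 8.27 and 9.45, and mice 1 and 5 were higher than the other 3, while its second probe averaged 5.02 and was detected on 2 arrays. Gata2, the stem and progenitor transcription factor, read 9.52, 9.79, 9.44, 8.48 and 9.09, with mouse 4 the lowest. Mpo, the granule enzyme of the granulocyte and monocyte line, read 12.14, 12.40, 12.64, 12.66 and 11.83 and stood at the 99.6th percentile. These percentiles rank probes by brightness, and because probes bind with different strength they are not ratios of transcript number between genes.

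The promoters of Kit and Mpo, a receptor shared across the compartment and a gene of a single lineage, show how differently built the starts of 2 well detected genes can be. They are shown from 250 bases before to 50 bases after the start, from RefSeq on GRCm38.p6, with every CG in capitals. The Kit promoter lies on the plus strand at chr5:75574737-75575036 and the Mpo promoter on the plus strand at chr11:87793534-87793833.
Kit: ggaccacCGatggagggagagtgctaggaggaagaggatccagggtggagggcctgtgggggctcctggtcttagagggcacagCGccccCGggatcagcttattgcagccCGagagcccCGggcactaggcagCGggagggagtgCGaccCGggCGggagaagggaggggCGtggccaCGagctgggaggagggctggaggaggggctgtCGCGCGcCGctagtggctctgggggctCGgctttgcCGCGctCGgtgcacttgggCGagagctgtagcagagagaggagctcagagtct
Mpo: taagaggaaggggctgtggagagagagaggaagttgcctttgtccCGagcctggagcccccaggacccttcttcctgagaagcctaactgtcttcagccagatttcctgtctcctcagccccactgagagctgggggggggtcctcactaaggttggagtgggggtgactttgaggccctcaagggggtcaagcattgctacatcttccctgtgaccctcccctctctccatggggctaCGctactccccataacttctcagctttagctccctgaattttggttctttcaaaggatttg
The Kit promoter holds 20 CG pairs and has a CpG ratio of 0.621, the number found over the number its C and G content would give. The Mpo promoter holds 2 CG pairs, with a ratio of 0.0871.

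Among surface markers of stem and multipotent cells, 8 of the 18 genes with a named probe were detected on all 5 arrays, against 30.8% of all genes. Detected on none were 5, where 38.4% of all genes were, so that the share was not raised. The brightest was Flt3, the cytokine receptor that marks multipotent progenitors with lymphoid potential, at 12.13, 11.57, 11.52, 11.74 and 11.70. Its values lay within a small range in all mice. Cd27, a TNF receptor family member of progenitors, read 10.42, 10.85, 10.89, 9.48 and 10.28. Cd34, a sialomucin that separates short-term from long-term stem cells in the mouse, read 9.47, 9.00, 8.96, 8.94 and 9.35. Cd48, a marker of progenitors that long-term stem cells lack, was chosen after its values were seen and averaged 7.90 ± 0.43 (SD, n = 5), from 7.16 in mouse 5 to 8.29 in mouse 4. Slamf1, which encodes the stem cell marker CD150, was detected on no array, and neither were Eng, Emcn, Tie1 and Cdh2. Esam, an adhesion molecule of stem cells and endothelium that was chosen here after its values were seen, was detected in mice 1, 3 and 5 at 7.72, 8.19 and 8.17 but was at the floor in mice 2 and 4 at 4.70 and 5.16. Genes of this class thus ran from among the brightest on the array to undetected.

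**Figure D2:**
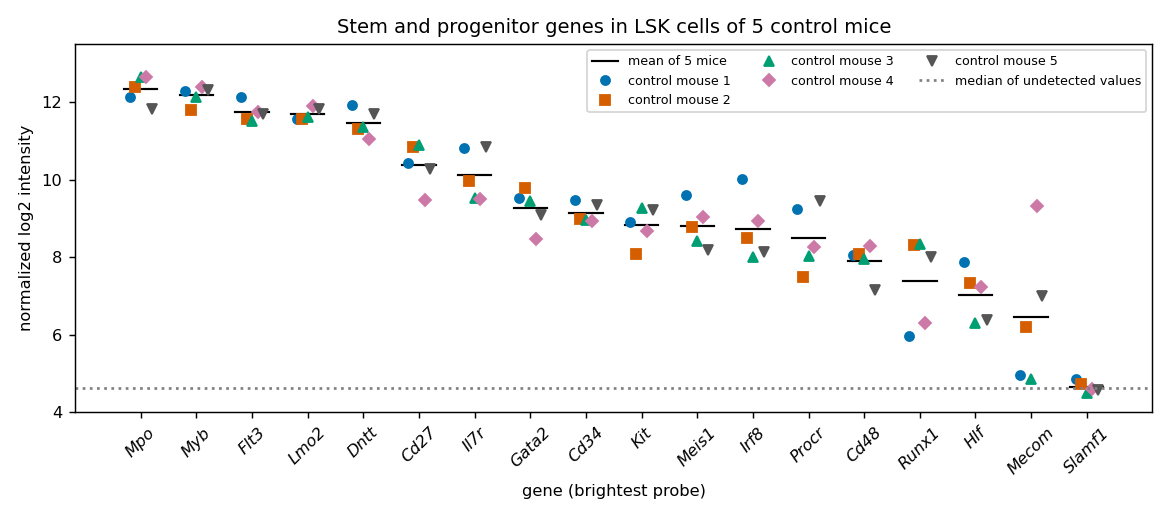
Normalized log2 intensity (vertical axis) of 18 stem and progenitor genes in each of the 5 control mice, with the mean as a bar and the median of all undetected values as a dotted line. Mpo, Myb and Flt3 lie near 12 with little spread, Mecom runs from 4.86 to 9.33, and Slamf1 lies on the dotted line.

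Genes of the stem cell transcription factor list were detected on all 5 arrays in 20 of 29 cases, against 30.8% of all genes. Detected on none were 2, Prdm16 and Zfp36l2, where 38.4% of all genes were. Myb, required for definitive blood formation, read 12.29, 11.80, 12.14, 12.39 and 12.31. Lmo2, a bridging factor of the stem cell complex, read 11.56, 11.56, 11.61, 11.90 and 11.82. Msi2, an RNA-binding protein listed with them, had an SD of only 0.08 around a level of 10.10 to 10.30. These 3 genes stood at the 96.8th percentile or above. Erg, Hhex and Hoxa7 followed at the 95.4th or 95.5th percentile. Hoxa9, a leukaemia-associated homeobox gene, read 8.27, 8.36, 7.70, 5.80 and 8.22, so that mouse 4 alone was low. Runx1, the core factor of blood emergence, read 5.97, 8.31, 8.34, 6.29 and 8.02, with mice 1 and 4 low. Ikzf2, the Helios gene, read 8.60, 6.82, 5.46, 6.63 and 6.97.

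Some stem cell factors were measured in part of the mice only, and those named here were chosen after their values were seen. Mecom, which long-term stem cells need, read 4.96, 6.19, 4.86, 9.33 and 7.00 and was undetected in mice 1 and 3. Gfi1b, a repressor shared with the erythroid and megakaryocyte lines, read 7.72, 9.70, 9.20, 4.77 and 8.94 and was undetected only in mouse 4. Hoxb5, a marker of long-term stem cells in the mouse, read 5.22, 4.65, 5.58, 4.81 and 7.65. Of the 20 genes of this list detected on all 5 arrays, mouse 4 was the lowest in 7, where it was the lowest in 24.7% of all genes detected on all 5 arrays. The SD over mice was above 1 in 3 of the 20, against 15.3% of all such genes, and in 2 without mouse 4, against 12.2%.

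Genes often found enriched in stem cells were detected on all 5 arrays in 13 of 28 cases, against 30.8% of all genes. Ifitm3, an interferon-induced membrane protein gene, was the brightest at 10.97, 10.63, 10.83, 11.09 and 10.74. Angpt1, which encodes the ligand of the Tie2 receptor, read 10.62, 9.77, 9.86, 10.60 and 9.80. Neither gene had a mouse far from the others. Socs2, a feedback inhibitor of cytokine signalling, read 7.52, 5.60, 7.84, 10.10 and 6.60, with mouse 4 the highest and mouse 2 the lowest. Egr1, an immediate early factor tied to quiescence, read 8.36, 6.21, 8.52, 9.23 and 9.64. Mmrn1, which encodes multimerin, read 7.58, 9.01, 8.19, 7.71 and 10.15. Abcb1a, Ltb, Nupr1 and Trim47 were detected on no array.

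Lymphoid priming genes formed one of the brightest lists, with a median brightness percentile of 93.3, against 76.5 over all listed genes. These ranks rest on the brightest probe of each gene. With the median of a gene's probes they were 83.2 and 67.5. Of 18 genes, 15 were detected on all 5 arrays, against 30.8% of all genes. Dntt, which encodes the terminal transferase of antigen receptor rearrangement, read 11.92, 11.30, 11.36, 11.05 and 11.70. Satb1, a chromatin organiser of early lymphoid cells, read 11.57, 11.38, 11.49, 11.45 and 11.06. Bcl11a, needed for lymphoid development, had an SD of 0.08 around 11.19 to 11.41. Ikzf1, the Ikaros gene, and Il7r, the interleukin-7 receptor gene, stood at the 96.8th and 96.5th percentiles. Il7r read 10.81, 9.98, 9.52, 9.50 and 10.84, so that mice 1 and 5 were higher than the other 3. Rag1, the recombinase gene, was chosen after its values were seen and was likewise higher in mice 1 and 5, at 10.81, 9.49, 9.32, 9.39 and 10.15. Mef2c, a factor of lymphoid and myeloid choice, read 9.97, 10.46, 10.02, 8.94 and 7.46, with mouse 5 the lowest. Mouse 1 was the highest in 8 of the 15 genes detected on all 5 arrays, against 20.6% of all such genes.

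Granulocyte and monocyte progenitor genes were less uniform. Of 23 genes, 9 were detected on all 5 arrays, against 30.8% of all genes, and 4 on none, against 38.4%. Srgn, the granule proteoglycan gene, read 11.21, 10.82, 10.99, 10.66 and 10.90. Ctsg, the cathepsin G gene, read 8.12, 9.38, 9.72, 10.65 and 7.66, so that mice 1 and 5 were the lowest. Irf8, the monocyte and dendritic cell factor, read 10.01, 8.51, 8.01, 8.93 and 8.13. Alas1, the general haem synthesis enzyme gene, read 8.34, 9.29, 6.78, 10.50 and 8.15. Cebpa, the factor that drives granulocyte commitment, was detected on no array, nor were Cebpe, Hp and Clec12a. Elane, the neutrophil elastase gene, chosen after its values were seen, was detected on 1 array only at a mean of 4.91.

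Lyz2, the lysozyme gene whose locus drives Cre in this strain, was detected in LSK cells of every control mouse at 8.49, 8.17, 9.69, 9.46 and 8.48. Its mean of 8.86 ± 0.67 (SD, n = 5) was at the 92.1st percentile. Lyz1, its neighbouring paralog, read 8.33, 8.44, 9.75, 8.11 and 8.98. The lysozyme genes are near-identical in sequence, so that each probe may bind the transcript of the other, and the second probe of Lyz1 had a mean of 5.79, that of Lyz2 a mean of 8.63. Both genes were highest in mouse 3.

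Erythroid genes were high in mouse 2. All 7 listed genes detected on all 5 arrays were highest in mouse 2, against 18.5% of all genes detected on all 5 arrays, and their mean level was 9.00, 11.11, 8.80, 9.01 and 9.46 in mice 1 to 5. Over the 16 genes detected on at least 1 array, some of them through mouse 2 alone, it was 6.82, 9.31, 6.62, 7.30 and 6.90. In this bulk RNA, more cells of a type and more RNA per cell cannot be told apart. Aqp1, a water channel of red cells and endothelium, read 10.16, 13.52, 11.26, 9.73 and 11.42. Hbb-bs, an adult beta globin gene, read 8.90, 12.43, 9.01, 10.82 and 9.51, and Hbb-bt, its neighbour, read 8.02, 11.38, 8.24, 9.06 and 8.55. Both beta globin genes were detected in every mouse, with mouse 2 at the top and mouse 4 next. Car1, a carbonic anhydrase gene of the erythroid line, read 6.86, 9.29, 5.92, 7.03 and 8.67. Car2 and Tfrc, the transferrin receptor gene, were also highest in mouse 2, at 11.36 and 10.26. Nfe2, a factor shared with megakaryocytes, differed little, from 8.68 to 9.55. Tmod1 was detected on no array.

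A further 4 erythroid genes were chosen after their values were seen. Slc4a1, the band 3 gene of the red cell membrane, read 4.50, 10.51, 4.63, 4.47 and 4.69 and was detected in mouse 2 only. Hba-a1, an alpha globin gene, read 4.54, 9.81, 4.65, 8.78 and 4.52 and was detected in mice 2 and 4. Klf1, the master factor of the erythroid line, read 5.32, 9.84, 5.06, 7.18 and 5.53. Ermap, which encodes a red cell membrane protein, read 7.25, 10.08, 5.63, 8.74 and 5.12. In each of the 4, mouse 2 was the highest and its gap to mouse 4 was smaller than to the other 3 mice, with Slc4a1 the exception. Over the 16 genes, some of which entered through mouse 2 alone, mouse 2 exceeded the median of the other 4 mice by 2.44 in mean level. The SD was above 1 in 4 of the 7 genes detected on all 5 arrays, against 15.3% of all such genes, and in 1 of the 7 without mouse 2, against 16.7%. Their median SD was 1.36, and 0.55 without mouse 2, where that of all such genes was 0.58 and 0.56.

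The promoters of both beta globin genes are shown because these neighbouring genes, on the minus strand of chromosome 7, were highest in the same mouse. The sequences are from RefSeq on GRCm38.p6, at chr7:103827879-103828178 for Hbb-bs and chr7:103813874-103814173 for Hbb-bt, both on the minus strand and written in the direction of the gene. Capitals mark CCACACCC, AGATAA and ATATAA, searched on both strands.
Hbb-bs: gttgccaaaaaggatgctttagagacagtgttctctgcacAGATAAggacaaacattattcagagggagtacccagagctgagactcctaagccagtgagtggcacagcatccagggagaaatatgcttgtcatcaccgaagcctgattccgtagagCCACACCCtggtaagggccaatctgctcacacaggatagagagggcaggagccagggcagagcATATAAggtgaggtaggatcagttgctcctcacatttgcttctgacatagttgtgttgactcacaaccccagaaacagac
Hbb-bt: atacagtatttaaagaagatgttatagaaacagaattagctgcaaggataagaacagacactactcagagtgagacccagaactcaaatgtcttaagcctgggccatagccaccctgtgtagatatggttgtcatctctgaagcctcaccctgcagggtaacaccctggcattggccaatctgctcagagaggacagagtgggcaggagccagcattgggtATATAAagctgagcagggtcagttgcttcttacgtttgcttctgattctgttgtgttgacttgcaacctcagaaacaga
With positions counted from the start of the gene, Hbb-bs holds CCACACCC at -93, AGATAA at -210 and ATATAA at -30. Hbb-bt holds ATATAA at -29, where it overlaps a TATAAA, and the other letters were not found in its window. CCACACCC occurs in 3.57% of the promoters of all genes in the table, AGATAA in 11.4% and ATATAA in 10.2%. The matches are a description of the letters and do not show that a factor binds.

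Genes of mature neutrophils were rarely detected in every mouse, and several of them were highest in mouse 2. Only S100a9 was detected on all 5 arrays, of 16 genes with a named probe, where 30.8% of all genes were, and 7 were detected on none, where 38.4% of all genes were, among them Itgam, Lcn2, Mmp8 and Retnlg. S100a9, a subunit of the abundant neutrophil protein calprotectin, read 5.57, 11.57, 8.99, 7.96 and 9.80. Camp, the cathelicidin gene, read 5.17, 8.78, 5.85, 4.89 and 5.23, and Ngp, the neutrophilic granule protein gene, read 4.78, 7.99, 5.72, 4.86 and 4.92. Ltf, the lactoferrin gene, read 5.08, 6.88, 5.74, 5.30 and 5.33. S100a8, the partner of S100a9 that was chosen after its values were seen, read 4.64, 7.96, 4.64, 4.56 and 5.87. Cybb, an NADPH oxidase subunit gene of phagocytes, was an exception at 7.02, 4.39, 7.55, 4.56 and 7.31, with mouse 2 the lowest, and Cxcr2, a chemokine receptor gene, read 6.98, 7.64, 7.30, 6.08 and 4.57. The mean level of the 9 genes detected on at least 1 array, 8 of them detected on part of the arrays only, was 5.40, 7.53, 6.15, 5.35 and 5.86 in mice 1 to 5. Mouse 2 exceeded the median of the other 4 by 1.90, and by 1.06 without background correction. A gene detected in mouse 2 alone could enter this mean. S100a9 was detected on all 5 arrays, Cxcr2 on 4, Camp, Ltf and Cybb on 3, and Ngp and S100a8 on 2. These genes therefore did not depend on mouse 2 alone to enter. How far erythroid and neutrophil RNA in mouse 2 entered its other values was not tested.

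**Figure D3:**
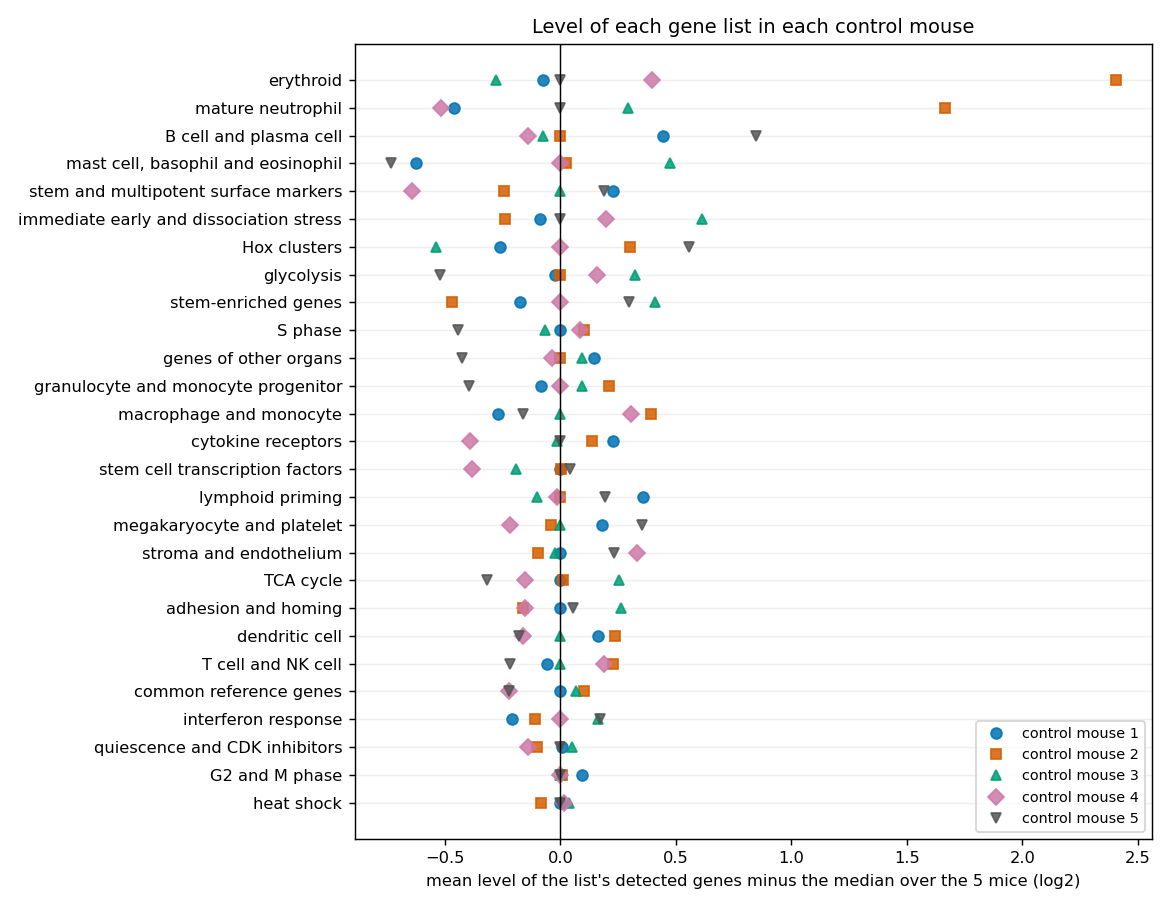
Mean normalized log2 level, in each control mouse, of the genes of each list that were detected on at least 1 array, drawn as the difference from the median over the 5 mice (horizontal axis, log2). Mouse 2 lies far to the right for the erythroid list (mean level 9.31) and the mature neutrophil list (mean level 7.53), while the heat shock list differs by little between mice. A gene detected in a single mouse enters its list, so that mouse 2 itself admits some of these genes.

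Megakaryocyte and platelet genes were detected on all 5 arrays in 4 of 18 cases, against 30.8% of all genes. Plek, the pleckstrin gene of platelets and leukocytes, read 9.89, 10.61, 9.60, 10.83 and 9.57. Gp9, a subunit of the von Willebrand factor receptor, read 8.28, 8.25, 9.17, 7.93 and 8.70. Pf4, the platelet chemokine gene, read 8.84, 7.20, 8.13, 8.33 and 7.74. Ppbp, another platelet chemokine gene, was split, with 8.64 and 8.56 in mice 1 and 5 and 4.54, 4.64 and 4.55 in mice 2, 3 and 4. Gp5, a further subunit of the same receptor, was detected in 4 mice and read 7.56, 5.88, 6.84, 4.75 and 9.28. Itga2b, the CD41 gene, chosen after its values were seen, was close to the floor at a mean of 5.23.

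B lineage genes included some of the brightest and some of the most variable. Of 17 genes, 9 were detected on all 5 arrays, against 30.8% of all genes. Pou2af1, a B cell coactivator gene, read 11.91, 11.45, 10.53, 10.69 and 11.87. Jchain, which encodes the joining chain of polymeric immunoglobulin, read 10.35, 10.73, 11.11, 10.55 and 11.13. Vpreb1, a surrogate light chain gene of B cell precursors, read 11.10, 9.23, 8.07, 7.48 and 10.48. Igll1, the other surrogate light chain gene, read 9.80, 8.05, 6.60, 9.81 and 9.53. Cd79b, the B cell receptor signalling subunit, read 8.76, 6.67, 6.64, 6.95 and 7.95. For Vpreb1 and Cd79b mice 1 and 5 were higher than the other 3, and for Igll1 mouse 4 was as high as mouse 1. Ebf1, the B lineage factor, chosen after its values were seen, read 8.21, 8.68, 7.71, 4.70 and 9.10 and was undetected only in mouse 4, while its second probe was detected on all 5 arrays. Cd22, a mature B cell receptor gene, was detected on no array.

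Of 20 genes of mature T cells and natural killer cells, 5 were detected on all 5 arrays, where 30.8% of all genes were, and 6 on none, where 38.4% of all genes were. Both shares are below those of all genes, and 9 genes were detected on part of the arrays. Those on none included Cd3e, Cd3g, Cd2 and Cd5. The exceptions included genes whose probes disagreed. Prf1, the perforin gene of killer cells, read 13.56, 13.24, 13.56, 13.68 and 13.99 on its brightest probe, while its second probe was detected on no array. Cd8a, the T cell coreceptor gene, read 7.41, 6.22, 8.54, 7.69 and 7.58, and its second probe was also detected on no array. Cd8b1 stood at the 91.9th percentile with a second probe detected on 2 arrays. Levels of these 3 genes therefore depend on the probe.

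Dendritic cell genes were detected on all 5 arrays in 4 of 16 cases, against 30.8% of all genes. Siglech, a lectin gene of plasmacytoid dendritic cells, was among the brightest of all at 12.48, 11.98, 12.26, 12.45 and 12.76, with a second probe that was detected on 2 arrays at a mean of 5.34. Cd74, the invariant chain gene of MHC class II, read 7.47, 6.88, 9.09, 9.63 and 6.92. H2-Ab1, a class II gene, read 9.27, 7.82, 8.49, 4.62 and 8.05, undetected only in mouse 4, with a second probe detected on all 5 arrays, whereas H2-Aa was detected in all 5 mice at 7.79, 6.92, 6.57, 6.07 and 7.41. Irf7, Xcr1 and Cd209a were detected on no array. Macrophage and monocyte genes were detected on all 5 arrays in 2 of 17 cases, again against 30.8% of all genes. Detected on none were 7, namely C1qa, C1qb, C1qc, Ccr2, Cd14, Msr1 and Timd4, a share near the 38.4% of all genes. Cd163, a scavenger receptor gene of macrophages, was the exception at 10.51, 10.63, 10.51, 10.98 and 10.00, with a second probe at a mean of 6.26.

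Of 16 genes of mast cells, basophils and eosinophils, 5 were detected on all 5 arrays and 6 on none. Both shares were near those of all genes, 30.8% and 38.4%. Mcpt8, a basophil protease gene, read 10.05, 12.35, 11.35, 11.24 and 10.79. Hdc, which encodes the enzyme that makes histamine, read 7.32, 9.38, 10.30, 9.65 and 8.60, and Prss34, another basophil protease gene, read 6.22, 8.59, 10.42, 8.13 and 5.99. All 3 were lower in mice 1 and 5 than in mice 2, 3 and 4. Prg2, the major basic protein gene of eosinophils, was steady at 8.82 ± 0.24 (SD, n = 5), from 8.52 to 9.14. Epx, Prg3, Ccr3, Tpsb2, Tpsab1 and Mrgprb2 were detected on no array. Genes of stroma and endothelium were detected on all 5 arrays in 2 of 20 cases, Acta2 and Pecam1, against 30.8% of all genes. Detected on none were 9, against 38.4% of all genes, among them Cdh5, Kdr, Col1a1, Col3a1 and Lum.

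**Figure D4:**
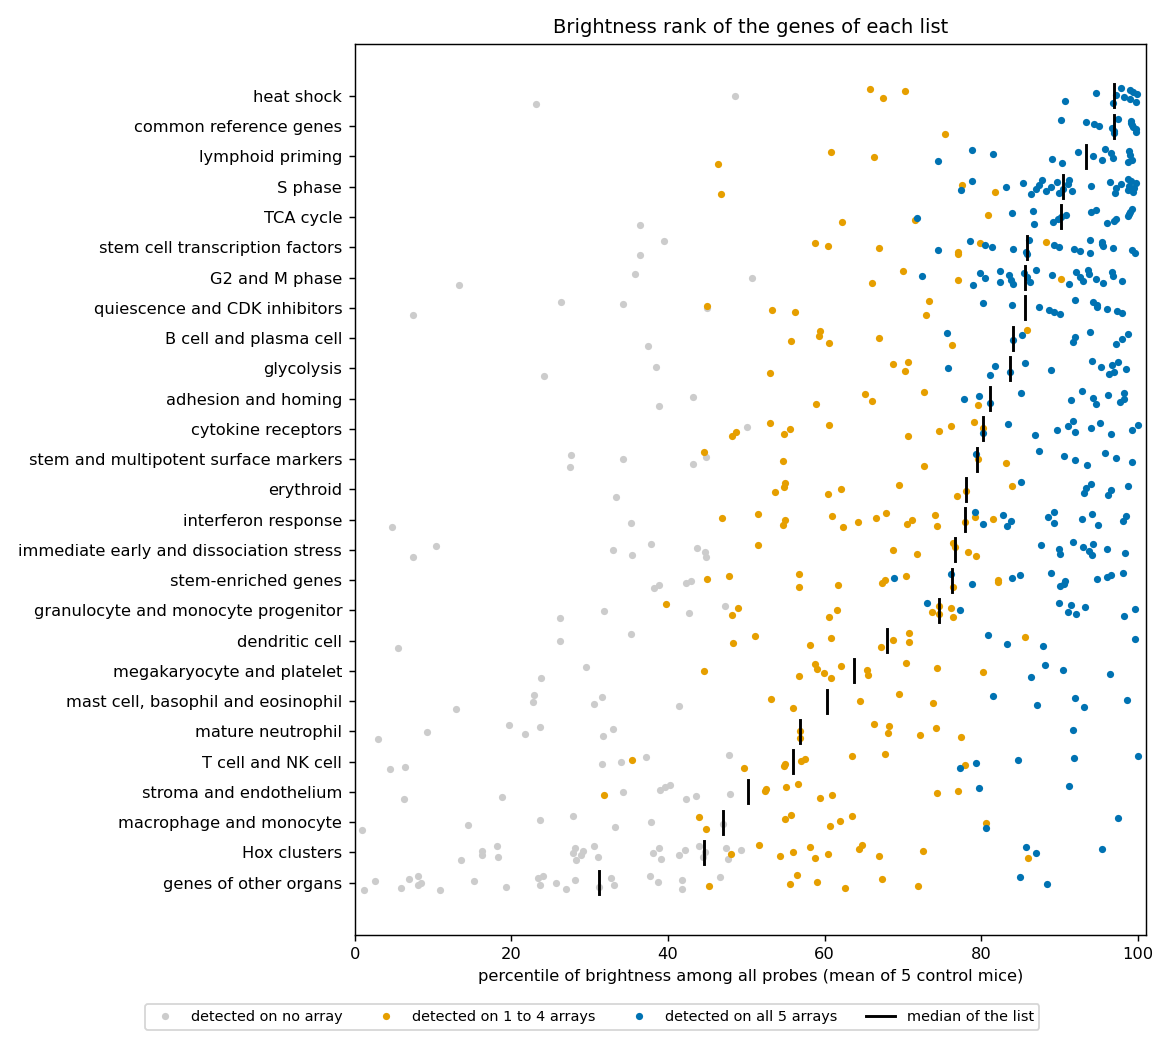
Percentile of brightness among all 45281 probes (horizontal axis) for each gene of each list, with colour giving the number of arrays on which it was detected and a bar the median of the list. The lymphoid priming list has a median of 93.3, and the list of genes of other organs a median of 31.2.

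Cytokine receptor genes were detected on all 5 arrays in 12 of 24 cases, against 30.8% of all genes. Ifngr2, an interferon gamma receptor subunit, was the brightest at 13.85 ± 0.20 (SD, n = 5), although its second probe averaged 5.73. Il1r1, an interleukin-1 receptor gene, read 10.57, 10.00, 9.48, 8.13 and 9.79. Il18r1, an interleukin-18 receptor gene, read 9.96, 9.86, 6.61, 10.48 and 9.65, so that mouse 3 alone was low. Il6ra, the interleukin-6 receptor gene, read 8.92, 6.69, 5.69, 5.97 and 7.04. Il3ra, the specific subunit of the interleukin-3 receptor, was detected on no array. Adhesion and homing genes were detected on all 5 arrays in 12 of 19 cases, again against 30.8% of all genes. Cxcr4, the receptor that holds stem cells in the marrow, had an SD of 0.13 around 10.50 to 10.85. Cd47 and Cd164 were of a like brightness at the 98.3rd and 98.2nd percentiles. Itgb2, the beta chain of the leukocyte integrins, read 7.24, 6.11, 5.52, 5.57 and 8.35.

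The Hox genes, which pattern the body axis and of which members of clusters A and B act in blood progenitors, were detected in a restricted pattern. Of 38 genes, 3 were detected on all 5 arrays, all of them in cluster A, against 30.8% of all genes. Detected on none were 23, where 38.4% of all genes were. Hoxa7 read 10.58, 10.27, 8.72, 10.23 and 8.74, and Hoxa5 read 7.78, 7.20, 6.61, 8.60 and 9.04. Hoxa9, given above, was the third. Hoxb3 was detected in 4 mice, at 7.14, 8.66, 8.80 and 8.73, and read 5.17 in mouse 3. Of cluster A 8 of 10 genes were detected on at least 1 array, of cluster B 4 of 10, of cluster C 3 of 9 and of cluster D 0 of 9.

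Genes of DNA replication were detected almost throughout. In the S phase list 28 of 31 genes were detected on all 5 arrays, against 30.8% of all genes, and none was undetected on all. All 6 subunits of the replicative helicase, Mcm2 to Mcm7, were detected on all 5 arrays, at the 87.8th to 99.8th percentiles. Mcm6 read 12.90, 12.85, 12.37, 12.61 and 12.64, and Mcm5 read 11.77, 12.32, 12.29, 11.66 and 12.04. Rrm1, the large subunit of ribonucleotide reductase, read 11.36, 11.81, 11.16, 11.07 and 10.93. Dut, the dUTPase gene, was an exception at 6.37, 6.24, 5.41, 9.93 and 5.42, with mouse 4 alone high. Mcm10, a replication initiation gene, read 6.34, 7.13, 8.01, 9.75 and 8.28. Mouse 5 was the lowest in 12 of the 28 genes detected on all 5 arrays, against 22% of all such genes.

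Mitotic genes were detected on all 5 arrays in 25 of 32 cases, against 30.8% of all genes. Plk1, the polo kinase gene, had an SD of 0.11 around 10.67 to 10.93, and Kif11, a spindle motor gene, had an SD of 0.12 around 10.02 to 10.35. Cenpa, the centromeric histone gene, read 9.56, 11.59, 10.08, 10.14 and 9.93, with mouse 2 the highest. Birc5, the survivin gene, read 9.03, 9.27, 8.90, 10.77 and 8.00. Aurka, the Aurora A kinase gene that was chosen after its values were seen, read 8.89, 9.99, 8.92, 4.57 and 9.71 and was undetected only in mouse 4. The mean level of the mitotic genes detected on at least 1 array nevertheless ran only from 7.99 to 8.09 over the 5 mice. Over the 25 detected on all 5 arrays it was 8.29, 8.17, 8.20, 8.50 and 8.08 in mice 1 to 5. Of these 25, mouse 4 was the highest in 9 and the lowest in 0, against 24.4% and 24.7% of all such genes. Genes of quiescence and CDK inhibitors were detected on all 5 arrays in 13 of 22 cases, again against 30.8% of all genes. Btg1 and Btg2, antiproliferative genes, stood at the 97.3rd and 96.1st percentiles. Cdkn1b, the p27 inhibitor gene, read 8.25, 9.44, 7.55, 7.41 and 7.96. Cdkn1c, the p57 inhibitor gene of quiescent stem cells, chosen after its values were seen, was detected on 1 array only, with a mean of 4.84.

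Interferon response genes were detected on all 5 arrays in 13 of 31 cases, against 30.8% of all genes. Irf1 read 11.24, 10.41, 11.06, 11.38 and 11.32, and Psmb9, an immunoproteasome subunit gene, read 11.24, 10.81, 10.87, 10.42 and 10.88. Irf9, part of the type I interferon signal complex, read 9.19, 7.73, 9.58, 11.31 and 9.89. Oasl2, an interferon-induced gene, read 7.68, 9.28, 10.44, 9.67 and 8.05. Isg15 and Ifit1, both strongly interferon-induced and chosen after their values were seen, were each detected on 1 array only, with means of 5.06 and 4.88. Immediate early and dissociation stress genes were detected on all 5 arrays in 10 of 25 cases, again against 30.8% of all genes. Detected on none were 8, against 38.4% of all genes, among them Atf3, Junb, Jund and Ier2. Klf6, a zinc finger gene, read 10.16, 11.32, 10.56, 11.65 and 11.51. Zfp36, which encodes an mRNA decay factor, read 9.65, 7.95, 9.57, 10.44 and 9.08. Nfkbia, the inhibitor of NF-kappaB, read 10.00, 8.48, 10.45, 6.79 and 10.45, with mouse 4 the lowest. Fos, chosen after its values were seen, read 5.71, 4.59, 8.11, 8.36 and 6.96.

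Chaperone and energy genes were mostly bright. Among the lists, heat shock had a median brightness percentile of 97.0. Of its 16 genes, 11 were detected on all 5 arrays, against 30.8% of all genes. Hspa8, the constitutive Hsc70 gene, read 12.95, 12.80, 12.90, 12.72 and 12.70. Hspb1 and Dnaja1 were detected on no array. In glycolysis, 13 of 19 genes were detected on all 5 arrays, against the same 30.8%. Ldha, the lactate dehydrogenase gene of anaerobic glycolysis, read 9.91, 10.28, 10.26, 10.21 and 9.48, while Aldoc and Eno3, isoforms of other tissues, were detected on no array. Mouse 5 was the lowest in 8 of the 13 glycolytic genes detected on all 5 arrays, against 22% of all such genes. In the TCA cycle 17 of 21 genes were detected on all 5 arrays, against 30.8% of all genes. Idh2, the mitochondrial isocitrate dehydrogenase gene, read 11.65, 11.22, 11.54, 11.62 and 11.35. Cs, the citrate synthase gene, read 7.06, 8.44, 6.60, 8.90 and 5.82.

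Common reference genes were near the top of the scale and genes of other organs at its lower end. Of 15 reference genes 14 were detected on all 5 arrays, against 30.8% of all genes, with a median percentile of 96.9. Actb, the beta actin gene, read 11.47, 11.75, 11.75, 11.89 and 11.69, and Hprt, chosen after its values were seen, read 10.28, 10.71, 10.30, 10.36 and 10.77. Of 33 genes of other organs, 24 were detected on no array, where 38.4% of all genes were, among them Alb, Ins2, Myh6, Sftpc and Gcg. Pomc, the pituitary hormone precursor gene, and Mbp, the myelin basic protein gene, were the 2 detected on all 5 arrays, at means of 8.08 and 7.53, and the second probe of each was detected on 2 arrays.

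The 20 genes with the highest mean level included 8 ribosomal protein genes, led by Rpl23 at 14.88 and followed by Rpl27a, Rpl3, Rps24, Rpl36a, Rps14, Rpl38 and Rps12. Their SDs over mice were small, and those of all 20 genes ran from 0.06 to 0.27. The brightest of all was Erich5 at 14.92, and its second probe was detected on 1 array at a mean of 5.15. Of the 12 genes that do not encode ribosomal proteins, 9 had a second probe, which was detected on fewer than 5 arrays for 6 of them and on none for Spc24, Prf1 and Hmgn1. Srr, the serine racemase gene, was the opposite case, with a second probe at 13.38 detected on all 5 arrays. Terf2ip and Rchy1 likewise had a second probe detected on all 5 arrays, at 7.65 and 6.80. Ctcfl, Zxda and Psmd4 had a single probe, and Ifngr2 and Rhbdl2 completed the list with second probes at 5.73 and 4.94. Over all genes detected on all 5 arrays with several probes, the second probe was also detected on all 5 for 48.3% of 3774 genes and on none for 12.2%. The median gap between the 2 probes was 1.57 on the log2 scale. Probes without a single gene symbol made up 48 of the 100 brightest probes and are not named.

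The spread between mice depended on the level. Over the 10377 probes detected on all 5 arrays the median SD was 0.58 on the log2 scale, which corresponds to a factor of 1.50. In the 2594 brightest of these probes it was 0.33, and in the 2594 probes with mean levels of 7.11 to 8.10 it was 0.76. Each gene was therefore set against the trend of SD over level. The 20 genes farthest above that trend were led by Aqp1, at 5.10 times the trend. Abi2, an actin regulator gene, read 9.88, 9.82, 11.37, 6.53 and 10.92, at 4.12 times the trend. Scly, the selenocysteine lyase gene, read 10.08, 8.27, 5.74, 10.20 and 11.48. Tmem134, a membrane protein gene, read 10.70, 10.59, 5.85, 6.09 and 9.49. Hbb-bs and S100a9 were at 3.68 and 3.69 times the trend.

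Mouse 4 was the lowest of the 5 mice in 12 of these 20 genes, against 24.7% of all genes detected on all 5 arrays. Krr1, a ribosome assembly gene, read 10.65, 11.52, 10.57, 8.07 and 11.83. Mdm4, the p53 inhibitor gene, read 9.30, 9.69, 10.03, 6.06 and 10.92. Heg1, which encodes a membrane protein of endothelium, read 9.47, 10.84, 10.14, 5.69 and 8.17. The same mouse was lowest for B9d2, Prrc2c, Slc25a38, Vav2, Trappc12, Dnajc3 and Nfkbia. It was the highest for Fam171a2 and for the small heat shock gene Hspb8, at 12.63 and 11.55. Ints3, an Integrator subunit gene, was lowest in mouse 1 at 6.24, and Mterf1a was lowest in mouse 3 at 6.67. Among the 100 genes farthest above the trend, mouse 4 was the farthest from the median of the others in 58. The same count was not made over all genes detected on all 5 arrays. In those, mouse 4 was the highest in 24.4% and the lowest in 24.7%. Without mouse 4 the median SD of all probes detected on all 5 arrays was 0.51. In Krr1, Mdm4 and Heg1, where mouse 4 was lowest, the SD without it was 0.63, 0.69 and 1.14, against 1.48, 1.86 and 2.03. In Scly, where mouse 3 was lowest, the SD without mouse 4 was 2.48, against 2.22. These genes were named for their large spread, and an SD must fall when the mouse farthest from the mean is left out. The changes in these 4 genes therefore only describe which mouse set the spread and are no test. The ranking of genes over the trend was not repeated without mouse 4.

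The 10 genes farthest below the trend had SDs of 0.05 to 0.13. Mvp, the major vault protein gene, read 7.21, 7.11, 7.19, 7.24 and 7.29. Kmt2a, the MLL methyltransferase gene that stem cells need, read 8.70, 8.65, 8.75, 8.51 and 8.75. Smc4, a condensin gene, read 7.82, 7.73, 8.00, 7.79 and 7.89, and Btk, a B cell kinase gene, read 6.83, 6.63, 6.66, 6.85 and 6.82. Klhdc3, Olfr243, Ubtd2, Emc1, Ywhaq and Nop9 completed the group. These genes were of middling brightness, from the 68.7th percentile for Olfr243 to the 91.3rd for Kmt2a.

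**Figure D5:**
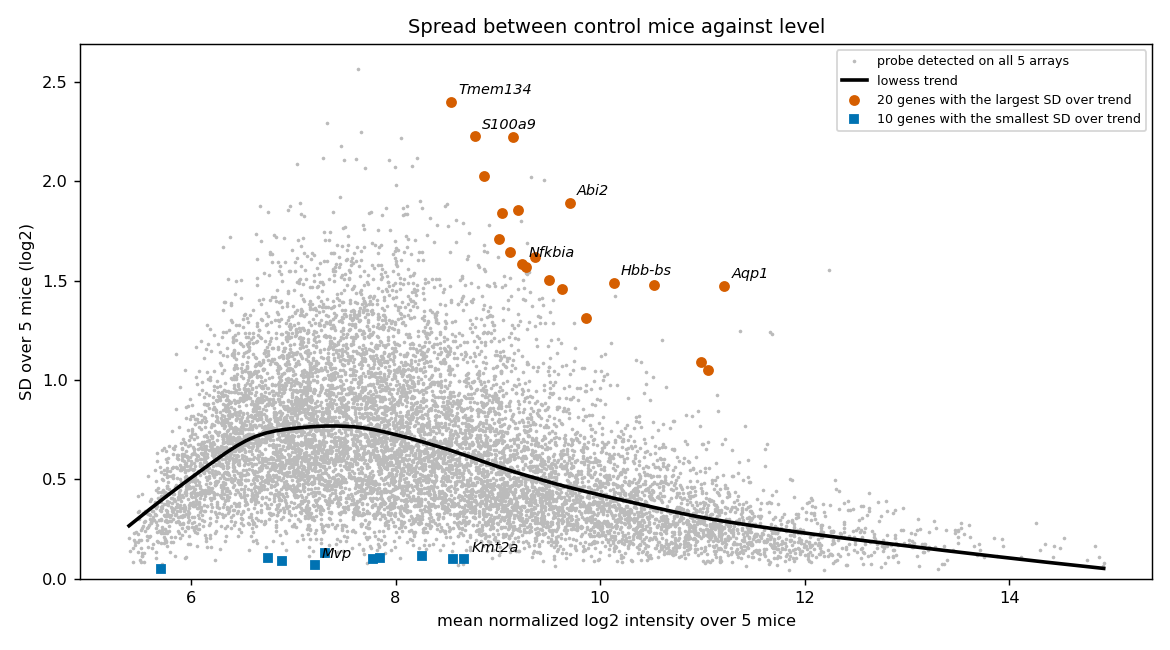
SD over the 5 control mice (vertical axis, log2) against mean normalized log2 intensity (horizontal axis) for each probe detected on all 5 arrays, with the lowess trend as a line. The 20 genes with the largest ratio to the trend (orange) include Aqp1 and Hbb-bs, and the 10 with the smallest (blue) lie at SDs of 0.05 to 0.13.

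Genes detected in LSK cells of every control mouse had CpG-rich promoters more often than the genes of the whole table. A promoter from the RefSeq table was available for 82.2% of the 5879 genes detected on all 5 arrays, and for 78.1% of them the CpG ratio was above 0.6, against 36.4% of all genes in the table, which holds many genes that the array does not measure. Over all genes of the array, the closer base, the share was 52.3%, but only 79.8% of them had a promoter in the table, just under the 80% required. The median ratio was 0.80 in the detected genes, 0.39 over the table and 0.63 over the genes of the array. The TATAAA letters, starting 20 to 40 bases before the start on the strand of the gene, were found in 1.18% of the detected genes, in 2.22% of the table and in 2.70% of the genes of the array. Within the detected genes the difference was small between the 1470 most variable relative to the trend (76.0% above 0.6) and the 1470 steadiest (80.6%). Fewer than 80% of the genes detected on no array had a promoter in the table (78.0%), so that the same count is void for them.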

How the data were processed

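Gene expression was measured on 10 Illumina arrays, of which the 5 from control mice are described. Per the labels, RNA was extracted with Trizol and RNeasy columns, amplified and hybridised as biotinylated cDNA, 1 array per mouse. The deposited intensity values are linear and not normalized, per the file headers. No source used here names the scanner software. The deposited detection fraction is headed as a p-value but rises with intensity on its own array (rank correlation of at least 0.990), so a value above 0.95 was taken as detected. The log2 values deposited by the authors carry no stated method. They matched quantile normalization without background correction, centred on each probe's median over the 10 arrays, to within 0.0131, and served as an alternative.

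Intensities of the 10 arrays were background-corrected and normalized with neqc of limma 3.58.1 (offset 16), in R 4.3.3. Of the probes, 34885 have 1 gene symbol in the annotation used, 18 have several and 10378 have none. The probe with the highest mean over the control mice stood for its gene. The SD over mice was set against a lowess trend (fraction 0.3) over the probes detected on all 5 arrays. Of the steps, only the ratio of SD to trend was checked on simulated data. No comparison between groups was made and no p-value was computed, and Dixon's gap rule served only to list arrays, lists and genes with a mouse far from the rest. The SD holds mouse, sort, amplification and array together. The number of arrays limits the precision.

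Genes were named by a rule. It took the marker genes, the lysozyme genes and the X- and Y-linked genes in full. Of each list it took up to 6 of the brightest and 4 of the most variable genes. Genes of a list detected on no array could be named as well, and only some of them are. The 20 brightest genes, and the 20 most and 10 least variable relative to the trend, completed the rule. The rule, the 30 lists and the group were chosen with earlier results of these data known. Promoters of 300 bases came from a RefSeq table (GRCm38.p6). Classes with a promoter for fewer than 80% of their genes were taken as void, and all genes of the array (79.8%) are given with that limit beside every gene of the table. Alternatives were other normalizations, detection rules and probe rules, and leaving out each mouse.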

Additional observations from a re-analysis of the deposited data

Results flagged for a closer look

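A mouse was looked at again where its gap to the nearest other mouse was more than 0.71 of the range over the 5 mice (Dixon's critical value), which chance gives in about 1 of 20 groups. This held for 3 of 5 array measures, 2 of 29 list levels and 14 of the 179 detected genes that the text names. Many of these genes were named because they varied between mice, so that the chance rate does not apply to them, and the share of the lists (6.90%) is near that rate. Mouse 4 was the one standing apart in all 3 array measures, with the fewest detected probes (15234, the next array having 16835), the most probes missed on its array alone (1293, the next having 469) and the lowest mean correlation with the other arrays (0.784, the next being 0.829). Among the lists, the erythroid level was high in mouse 2 (9.31, the next being 7.30) and the level of the mitotic list was high in mouse 1 (8.09, the next being 8.00), the second being a small difference. Both levels cover genes detected on at least 1 array, so a mouse can raise a list through genes that it alone admits. Over the erythroid genes detected on all 5 arrays, mouse 2 read 11.11 and the next mouse 9.46. Over the mitotic genes detected on all 5 arrays, mouse 4 was the highest (8.50) and mouse 1 read 8.29.

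Of the 14 genes, 9 stood apart in mouse 4. It was low there for Eif2s3y (4.41), Hoxa9 (5.80), Nfe2 (8.68), Aurka (4.57), Btg1 (9.68), Vav2 (6.00) and Dnajc3 (7.54), and high for Dut (9.93) and Klhdc3 (7.05). Mouse 2 was high for Slc4a1 (10.51), Camp (8.78) and Cenpa (11.59). Mouse 3 was low for Ikzf1 (9.67) and Il18r1 (6.61). The genes share the array of each mouse and are not independent of each other. What sets these arrays apart was not tested.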

How the results depend on the processing

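Most of the recomputed values are counts, percentiles, SDs or correlations. Among those of the main results, 32 stayed within their limit and 15 moved beyond it. The limit was the spread between mice, 1.5 times for counts, and the margin of a binomial interval for the promoter share. Values of both kinds follow. Probes detected on at least 3 of 5 arrays numbered 15975, against 10377 on all 5, and leaving out each mouse gave 10731 to 11670. Genes detected on all arrays numbered 6034 to 6519 without each mouse. The count of genes detected on all arrays moved by more than 1.5 times in 12 lists when 3 arrays sufficed, and in 1 list each at a fraction above 0.99, without mouse 4 and without mouse 5. The median brightness percentile of the listed genes was 76.5, and 67.5 when the median of a gene's probes replaced the brightest. That choice gave a percentile of 75.6 for Kit, 71.9 for Procr, 93.9 for Gata2 and 97.9 for Mpo. The same choice lowered the median of the lymphoid priming list from 93.3 to 83.2 and of the S phase list from 90.4 to 87.2. The stem and multipotent surface marker list fell from 79.4 to 55.6, and the granulocyte and monocyte progenitor list only from 74.6 to 73.1. The median SD of 0.58 was 0.39 without background correction, 0.65 with median scaling, 0.39 in the authors' deposited log2 values and 0.27 over all probes, and 0.514 to 0.568 without each mouse, lowest without mouse 4. The median correlation between arrays of 0.842 was 0.874 without background correction, 0.819 with cyclic loess, 0.886 over all probes and 0.812 to 0.848 without each mouse. The share of promoters with a CpG ratio above 0.6 was 76.6% when all promoters of a gene were averaged, a choice made after seeing the data. The excess of the erythroid list in mouse 2 over the median of the others was 2.44, over genes detected on at least 1 array. It was 1.69 both without background correction and in the authors' deposited values. For the neutrophil list it was 1.90, against 1.06 and 1.05, and these alternatives were also chosen after seeing the data. The cause of these changes was not tested. Signal close to background limits the dimmer genes. No paired analysis was possible because only the control group is described and its values come from no test.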

Other observations

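Probes without a single gene symbol numbered 10396, of which 1862 (17.9%) were detected on all 5 arrays, where 24.4% of the named probes were. Some transcripts of control LSK cells are thus measured here under no gene name.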
